A study of Mus musculus with 3 samples.

Results

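Cdh2, Cdh11, Cdh13, Cdh15, Pcdh7 and Fat3 are 6 cadherin genes of the 32285 genes counted in sorted mouse bone-lining cells (BLCs), and they were chosen by symbol. Each was followed per library across 18232 cells, of which 10026 fell into 5 gates of osteoblasts, CXCL12-abundant reticular (CAR) cells, tendon cells, fibroblasts and chondrocytes. The study profiled single cells by droplet RNA-seq from femora, tibias and iliac bones of WT mice whose marrow had been flushed out before the bone was digested with collagenase. The 3 libraries, replicates 1 to 3, were all sorted as CD45-, Ter119-, CD31-, Sca-1- and Alcam+ cells, so there was 1 group and no treatment. GEO's labels name the tissue as bone marrow and give no animal, age or batch. Age and strain are given in the study's methods only for its mice as a whole. The methods of the study call the samples independent without saying whether they were separate mice, and the p-values measure only the spread between these libraries, which may be technical.

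Cadherins are calcium-dependent adhesion proteins whose extracellular repeats bind cadherins on the neighbouring cell. Classical cadherins reach the actin skeleton through beta-catenin and alpha-catenin, so the same protein that holds a junction together also takes part in Wnt signalling. N-cadherin and cadherin-11 are the classical cadherins best known from the osteoblast lineage, where they join bone-forming cells to each other. Protocadherins and the giant Fat cadherins carry different cytoplasmic tails and do not use this catenin link in the same way.

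The proteins differ in how they meet the cell membrane. Cdh2 encodes N-cadherin, and Cdh11 (ENSMUSG00000031673, chromosome 8, 102632095 to 102785642, minus strand, mm10) encodes cadherin-11, also called OB-cadherin. Cdh15 (ENSMUSG00000031962, chromosome 8, 122847966 to 122867397, plus strand) encodes M-cadherin, which is best known from skeletal muscle and its satellite cells. Cdh13 (ENSMUSG00000031841, chromosome 8, 118283733 to 119324921, plus strand) encodes T-cadherin, which lacks a transmembrane part and is held by a lipid anchor. Pcdh7 (ENSMUSG00000029108, chromosome 5, 57717967 to 58133230, plus strand) encodes a protocadherin, and Fat3 (ENSMUSG00000074505, chromosome 9, 15910189 to 16501285, minus strand) encodes one of the giant Fat cadherins. These spans are mostly intron. Exons take from 1.08% of the 1041.2 kb of Cdh13 to 16.7% of the 19.4 kb of Cdh15, and whether reads in introns were counted is not given in the sources used here. Antisense genes within Cdh2, Cdh13 and Pcdh7 have entries of their own among the genes counted, and whether counting used strand is not given either.

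Promoters are shown for Cdh15, Pcdh7 and Fat3, the 3 of the 6 genes that had one in the RefSeq table used (assembly GRCm38.p6), and all of them had their highest level in the osteoblast gate. Each window runs from 250 bases before the annotated start to 50 bases after it. Capitals mark matches on either strand to TGTGGT (the core letters bound by RUNX factors, which reads ACCACA on the other strand), CANNTG (the E-box), GGGCGG (the GC box) and TATAAA (the TATA box).
Cdh15, chr8:122848124-122848423, plus strand: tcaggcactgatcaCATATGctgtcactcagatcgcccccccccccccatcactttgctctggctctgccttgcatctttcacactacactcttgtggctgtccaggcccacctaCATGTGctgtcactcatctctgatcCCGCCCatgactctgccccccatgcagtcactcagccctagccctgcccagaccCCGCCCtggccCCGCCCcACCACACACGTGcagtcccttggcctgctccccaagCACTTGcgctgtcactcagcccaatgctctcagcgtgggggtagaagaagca
Pcdh7, chr5:57717831-57718130, plus strand: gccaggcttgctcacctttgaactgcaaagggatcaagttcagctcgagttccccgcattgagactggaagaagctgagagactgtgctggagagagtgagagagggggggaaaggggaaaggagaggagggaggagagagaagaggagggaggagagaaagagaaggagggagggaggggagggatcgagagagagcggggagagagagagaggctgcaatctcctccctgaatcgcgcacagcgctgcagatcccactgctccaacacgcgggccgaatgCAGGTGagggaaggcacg
Fat3, chr9:16502005-16502304, minus strand: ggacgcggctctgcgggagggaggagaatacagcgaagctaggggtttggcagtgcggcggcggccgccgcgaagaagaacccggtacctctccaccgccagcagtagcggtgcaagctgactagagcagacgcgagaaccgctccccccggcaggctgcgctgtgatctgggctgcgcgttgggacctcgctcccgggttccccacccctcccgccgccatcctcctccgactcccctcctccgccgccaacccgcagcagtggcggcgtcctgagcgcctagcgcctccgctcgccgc
The Cdh15 window held 1 match to TGTGGT, 4 to CANNTG, 3 to GGGCGG and none to TATAAA, and its ACCACA lay directly before 1 of the CANNTG matches, sharing no base with it. The Pcdh7 window held 1 CANNTG and no other match, and the Fat3 window held no match to any of the 4. Of 32851 promoters of this length, 16.8% held TGTGGT, 72.3% CANNTG, 35.7% GGGCGG and 13.6% TATAAA. The windows were rich in G and C, at 61.3% for Cdh15, 59.3% for Pcdh7 and 71.3% for Fat3.

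A cell entered a gate when at least 3 markers of that lineage were on and at most 2 of every other lineage were, and no cadherin was among the markers. The osteoblast gate held 28, 286 and 393 cells in replicates 1, 2 and 3, the CAR gate 574, 79 and 103, the tendon gate 72, 59 and 58, the fibroblast gate 40, 36 and 48, and the chondrocyte gate 24, 3476 and 4750. Levels are given as CPM, meaning the gene's UMIs (unique molecular identifiers, 1 per captured RNA molecule) per 1000000 UMIs of all cells of that gate in that library. Genes outside the gating lists set the gates apart. Col1a1, the main collagen of bone, stood at 48935, 111482 and 106040.0 CPM in the osteoblast gate against 147, 1316 and 793 in the CAR gate. Gas6, a gene of marrow stroma, stood at 1902 to 2146 CPM in the CAR gate and at 6.47 to 75.2 in the osteoblast gate, and Fmod, the tendon proteoglycan fibromodulin, peaked in the tendon gate at 3125 to 3309.6 CPM. Itga8, the gene that marks the study's MSC subset, stood at 122, 110 and 64.2 CPM in the tendon gate and at most 12.0 in the others of the 5 gates. The mural gate of replicate 1 held 214 CPM. The study found Mfap4, Kera, Tnmd, Chodl and Ptx4, all markers of the tendon gate, enriched in its Itga8 cluster. The name tendon thus refers to the gate's markers only. Alcam RNA was found in all 5 gates, at 12.5 to 104.5 CPM. The fibroblast gate carried 94.5 to 203 CPM of Ly6a, the gene of Sca-1, although Sca-1+ cells had been sorted away.

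Replicate 1 stood apart from the other libraries before any cadherin was read. It had 2606 barcodes against 7172 and 10529, few chondrocytes, and many CAR cells. Its 28 osteoblast-gate cells also held 1203 CPM of B-cell and plasma-cell markers, against 1.61 and 2.16 in replicates 2 and 3, and 711 CPM of CAR markers against 264 and 245. Its 24 chondrocyte-gate cells held 255 CPM of the CAR gene Hp, against 2.98 and 1.88. Conversely, the osteoblast gate of replicates 2 and 3 held 5853 and 6979 CPM of the 9 chondrocyte markers, against 1948 in replicate 1. The part of these foreign transcripts in the results was not tested. Levels of the 6 cadherin genes are therefore given per library, and some also without replicate 1. Other genes of the cadherin system are given as means over the libraries, with replicate 1 included. The libraries shared 5, 9 and 27 cell barcodes in pairs, and median depth was 5614, 9704 and 5814 UMIs per cell.

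**Figure D1:**
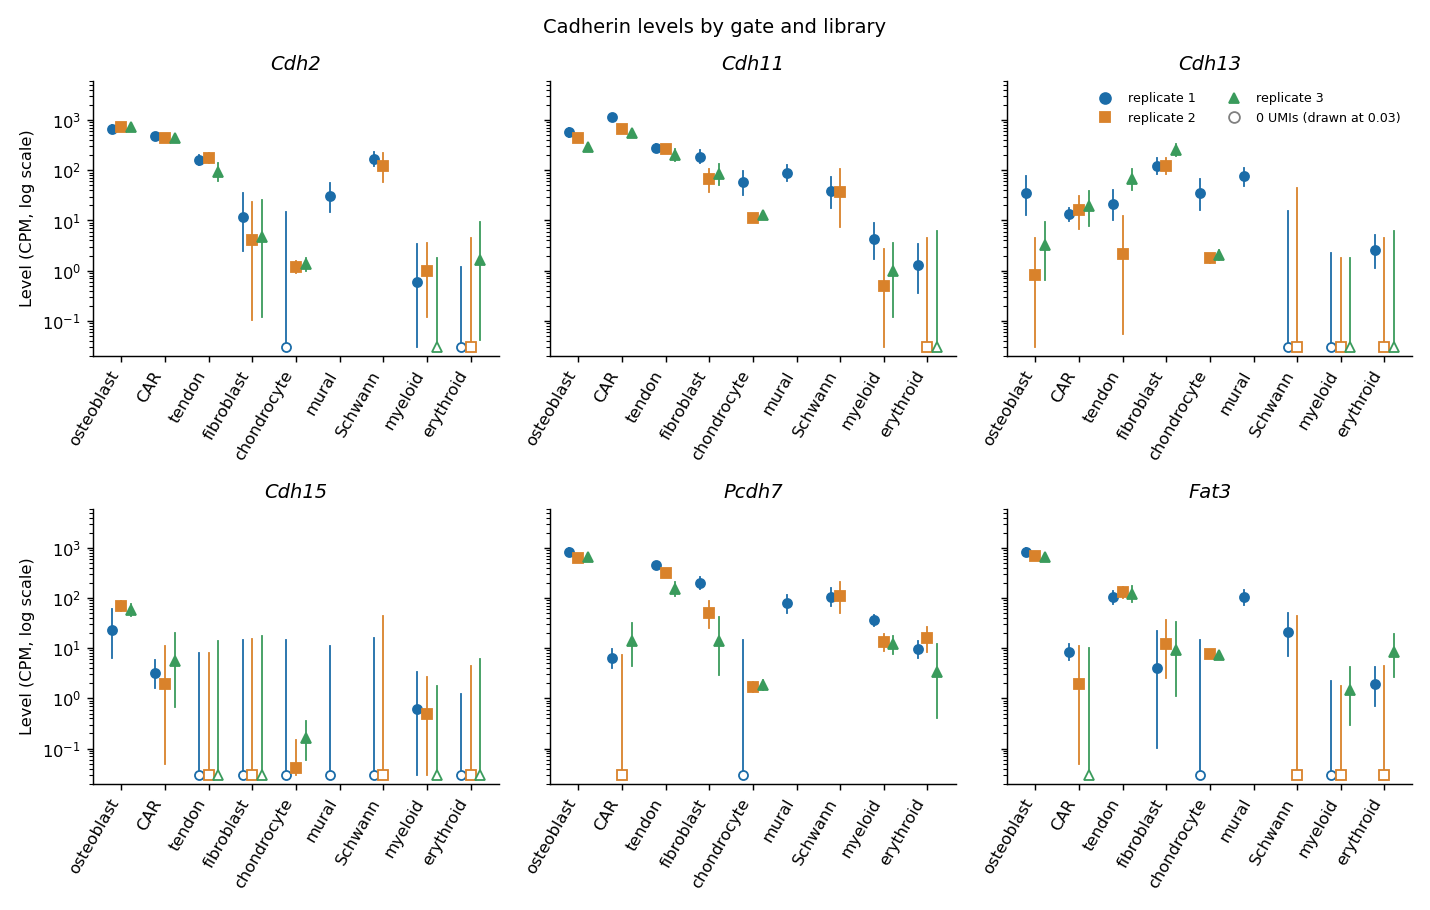
Level of each cadherin gene (vertical axis, CPM, log scale) in the lineage gates with at least 20 cells in a library, one point per replicate with its exact 95% Poisson interval, which covers counting error only. Cdh2, Pcdh7 and Fat3 stand above 600 CPM in every osteoblast point, Cdh13 is highest in the fibroblast gate and Cdh15 has its highest points in the osteoblast gate.

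Cdh2 (ENSMUSG00000024304, chromosome 18, 16588877 to 16809246, minus strand), the gene of N-cadherin, was highest in osteoblasts, next in CAR cells and then in tendon cells, and it was near 0 in chondrocytes. In the osteoblast gate it stood at 659 CPM in replicate 1, 726 in replicate 2 and 719.8 in replicate 3 (702 ± 36.9, mean ± SD, n = 3 libraries). In the CAR gate it stood at 481, 449 and 432 CPM (454 ± 24.9) and in the tendon gate at 163, 178 and 94.4 (145 ± 44.6). Each of these groups of 3 values lay clear of the next. The fibroblast gate held 12.0, 4.11 and 4.67 CPM, and the chondrocyte gate 0, 1.19 and 1.34. The chondrocyte values of replicates 2 and 3 rest on 3476 and 4750 cells. Schwann cells, the glia of peripheral nerve, held 171 and 120.4 CPM in the libraries with enough of them.

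Comparisons between gates used sums of UMIs per gate and library in edgeR's quasi-likelihood test with library as a block, and called means an adjusted p (Benjamini-Hochberg over 7907 genes) under 0.05. Between osteoblasts and CAR cells, 35.5% of the genes were called, and 4 of the 6 cadherin genes were. Calls were thus common in general, and a gene's fold and level say more about it than its call. Cdh2 was higher in osteoblasts by 1.11 ± 0.23 on the log2 scale (± SE, adjusted p = 0.00127), with every library in that direction. The call was lost without replicate 2 (1.05, edgeR adjusted p = 0.0622) and without replicate 3 (0.99, edgeR adjusted p = 0.0533). The fitted difference was also larger than the plain ratio of CPM, because the scaling factors (TMM) were 0.739 to 0.987 for osteoblast sums and 1.10 to 1.21 for CAR sums.

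Cdh11 had a broader spread, with its highest mean in CAR cells and a lower level in every gate after that. In the CAR gate it stood at 1159.7 CPM in replicate 1, 657 in replicate 2 and 544 in replicate 3 (787 ± 328). In the osteoblast gate it stood at 572, 434 and 294 CPM (433 ± 139). The 2 gates overlapped, although CAR cells were above osteoblasts within each of the 3 libraries. The study counts Cdh11 among its osteoblast markers. It also lists Cdh11 and Cdh15 among the blood stem cell niche factors that it compared between N-cadherin+ and Itga8+ MSCs. The test did not separate osteoblasts from CAR cells for Cdh11, at a log2 difference of -0.34 ± 0.30 (edgeR adjusted p = 0.406). Cdh11 was 1.22 ± 0.31 higher on the log2 scale in osteoblasts than in tendon cells (edgeR adjusted p = 0.00617), where it stood at 277, 266 and 204 CPM. Without replicate 2 or 3 that adjusted p was 0.0720 or 0.0786. The fibroblast gate held 187, 65.7 and 84.1 CPM, and the chondrocyte gate 58.8, 11.1 and 12.7, with replicate 1 the highest in both.

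Cdh15, the gene of M-cadherin, was concentrated in osteoblasts and rested on few UMIs. The osteoblast gate held 23.1 CPM in replicate 1 (4 UMIs), 69.1 in replicate 2 (86 UMIs) and 58.2 in replicate 3 (54 UMIs). The CAR gate held 3.24, 1.98 and 5.47 CPM, all below the lowest osteoblast value. The tendon and fibroblast gates had no Cdh15 UMI in any library, and the chondrocyte gate had 0, 0.0409 and 0.161 CPM. Cdh15 passed the filter on low counts through its osteoblast sums alone, so it could be tested only because osteoblasts were high, and the differences from the other gates are given as a description. The fitted difference of osteoblasts from CAR cells was 4.02 ± 0.56 on the log2 scale. Against a floor of 3 UMIs over the 3 libraries together, the osteoblast level was at least 24.1-fold higher than in tendon cells and at least 14.5-fold higher than in fibroblasts. Muscle was checked because M-cadherin is a muscle protein. Pax7, Myf5, Myod1, Myog and Tnnt3 had 0 UMIs in the osteoblast gate of all libraries, and the 9 muscle markers summed to 17.3, 5.62 and 6.47 CPM, of which the value of replicate 1 was 3 UMIs of Myl1. The kept cells held 202 Cdh15 UMIs in all, and without replicate 2 the gene was too low to be tested.

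Cdh13, the gene of the lipid-anchored T-cadherin, was the only one of the 6 with its highest level in fibroblasts among the 5 gates. The fibroblast gate held 123, 123 and 252 CPM (166 ± 74.5), all above every value of the other 4 gates. The tendon gate held 21.8, 2.20 and 68.0 CPM and the CAR gate 13.6, 15.8 and 19.1. Both the osteoblast and the chondrocyte gate had 1 high library, replicate 1, at 34.7 and 35.3 CPM, while replicates 2 and 3 held 0.803 and 3.23 CPM in osteoblasts and 1.78 and 2.09 in chondrocytes. Without replicate 1 the osteoblast mean was 2.02 CPM and the chondrocyte mean 1.93, against 12.9 and 13.0 with it. Osteoblasts differed from fibroblasts by -4.66 ± 0.88 on the log2 scale (edgeR adjusted p = 7.19e-04) and CAR cells from fibroblasts by -3.61 ± 0.70 (edgeR adjusted p = 9.40e-04). The osteoblast differences from CAR cells (-1.06 ± 1.16) and tendon cells (-1.90 ± 1.15) did not pass the test (edgeR adjusted p = 0.519 and 0.227). They became -2.67 and -3.33 without replicate 1, and both then passed (edgeR adjusted p = 0.0414 and 0.00831). Without replicate 3 the tendon comparison was 0.053, of the opposite sign.

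Pcdh7, the protocadherin gene, was high in osteoblasts and tendon cells and almost missing from CAR cells. The osteoblast gate held 838, 627 and 648 CPM in replicates 1 to 3 (704 ± 116). The tendon gate held 449, 309.9 and 151 CPM (303 ± 149), with replicate 3 the lowest. In the CAR gate the same gene stood at 6.48, 0 and 13.7 CPM. Osteoblasts were 7.65 ± 0.61 higher than CAR cells on the log2 scale (edgeR adjusted p = 5.07e-08) and 1.77 ± 0.41 higher than tendon cells (edgeR adjusted p = 0.00309). The latter missed the threshold without replicate 2, at 1.92 with an edgeR adjusted p of 0.0557. The fibroblast gate spread from 199 CPM in replicate 1 to 49.3 in replicate 2 and 14.0 in replicate 3, overlapping tendon cells, and averaged 31.7 without replicate 1 against 87.5 with it. Chondrocytes held 0, 1.68 and 1.88 CPM. Myeloid cells held 35.9, 13.2 and 12.1 CPM of Pcdh7, while the B-cell and plasma-cell gate of replicate 1 had 0 (exact Poisson interval up to 1.49 CPM). The CAR interval of that library, 4.06 to 9.81 CPM, lay above that limit and below the myeloid value. Whether the myeloid level is background or expression was not tested.

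Fat3, the giant cadherin gene, followed the same order at the top and fell away faster. The osteoblast gate held 838, 692 and 662 CPM (731 ± 94.4) and the tendon gate 102, 129.7 and 121 (118 ± 13.9). These were the only gates with Fat3 above 13 CPM among the 5. The fibroblast gate held 3.98, 12.3 and 9.35 CPM, the chondrocyte gate 0, 7.83 and 7.45, and the CAR gate 8.54, 1.98 and 0, and these 3 gates overlapped. Osteoblasts were 7.29 ± 0.42 higher than CAR cells (edgeR adjusted p = 2.60e-09) and 3.07 ± 0.31 higher than tendon cells (edgeR adjusted p = 1.27e-06) on the log2 scale. The size of the CAR level depended on the gate, being 3.51 CPM on average, 11.6 with no removal of doublets and 24.8 with a looser gate. The 59 mural cells of replicate 1, from vessel walls, held 105 CPM of Fat3, a value from 1 library.

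Across the 10 pairs of gates the members were called as follows, beside the share of all 7907 genes called. Osteoblasts differed from tendon cells in 5 of the 6 members (32.3% of all genes called), from fibroblasts in 6 (30.6%) and from chondrocytes in 5 (48.9%). Cdh15 is among the members called in each osteoblast pair and is no support there, since it entered the test through the osteoblast sums. All 5 of those calls against tendon cells and against chondrocytes were higher in osteoblasts, as were the 4 against CAR cells, and against fibroblasts Cdh13 alone was lower. CAR cells differed from tendon cells in 4 members (27.6%), from fibroblasts in 4 (25.9%) and from chondrocytes in 4 (48.9%). Tendon cells differed from fibroblasts in 5 (7.47%) and from chondrocytes in 5 (38.3%), and fibroblasts from chondrocytes in 4 (26.5%). Without replicate 2 the count fell from 4 to 2 between osteoblasts and CAR cells, from 5 to 2 between osteoblasts and tendon cells, and from 4 to 2 between CAR cells and chondrocytes. Between tendon cells and fibroblasts it fell from 5 to 2 without replicate 2 or replicate 3. The median log2 difference of all genes lay between -0.08 and 0.02 in the 10 pairs.

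The CAR and tendon gates differed in both directions, and the tendon gate held all of Cdh2, Cdh11, Pcdh7 and Fat3. Cdh2 and Cdh11 were higher in CAR cells, by 1.62 ± 0.25 and 1.56 ± 0.31 on the log2 scale (edgeR adjusted p = 8.92e-05 and 0.00103). Pcdh7 and Fat3 were lower in CAR cells, at -5.88 ± 0.62 and -4.22 ± 0.43 (edgeR adjusted p = 1.59e-06 and 1.13e-06). Osteoblasts held all 4 genes at high level, as the per-replicate values above show. Tendon cells exceeded fibroblasts in Cdh2 by 4.31 ± 0.45 and in Fat3 by 3.72 ± 0.55 on the log2 scale (edgeR adjusted p = 1.07e-05 and 3.81e-04). They also exceeded fibroblasts in Cdh11 by 1.20 ± 0.35 and in Pcdh7 by 1.84 ± 0.48, with Cdh13 at -2.76 ± 0.72 (edgeR adjusted p = 0.0487, 0.0229 and 0.0236). The calls of those 3 genes were lost without replicate 2 or replicate 3, where the edgeR adjusted p ran from 0.0682 to 0.490.

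Chondrocytes, the most numerous gated cells, had the lowest mean level of Cdh2, Cdh11 and Pcdh7 among the 5 gates. Osteoblasts exceeded them in Cdh2 by 9.26 ± 0.36 and in Cdh11 by 4.73 ± 0.37 on the log2 scale (edgeR adjusted p = 1.18e-11 and 2.57e-08). Cdh13 was 5.75 ± 0.71 higher in fibroblasts than in chondrocytes (edgeR adjusted p = 1.62e-05). It was 2.14 ± 0.86 higher in CAR cells and 2.98 ± 0.92 higher in tendon cells than in chondrocytes (edgeR adjusted p = 0.0474 and 0.0160), and neither call held without replicate 2 or replicate 3, where the edgeR adjusted p ran from 0.145 to 0.816. Cdh2 was 2.22 ± 0.72 higher in fibroblasts than in chondrocytes (edgeR adjusted p = 0.0295), a call lost without any 1 of the 3 libraries (edgeR adjusted p = 0.0626 to 0.329). Fat3 in CAR cells and chondrocytes differed by -0.53 ± 0.48 (CAR minus chondrocyte, edgeR adjusted p = 0.376). This difference was called in opposite directions by other settings, at -3.01 without replicate 1 (edgeR adjusted p = 0.00528) and at 1.57 with a looser gate (edgeR adjusted p = 0.0291). Pcdh7 in CAR cells and chondrocytes differed by 0.87 ± 0.73 (edgeR adjusted p = 0.338), with both at a few CPM.

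**Figure D2:**
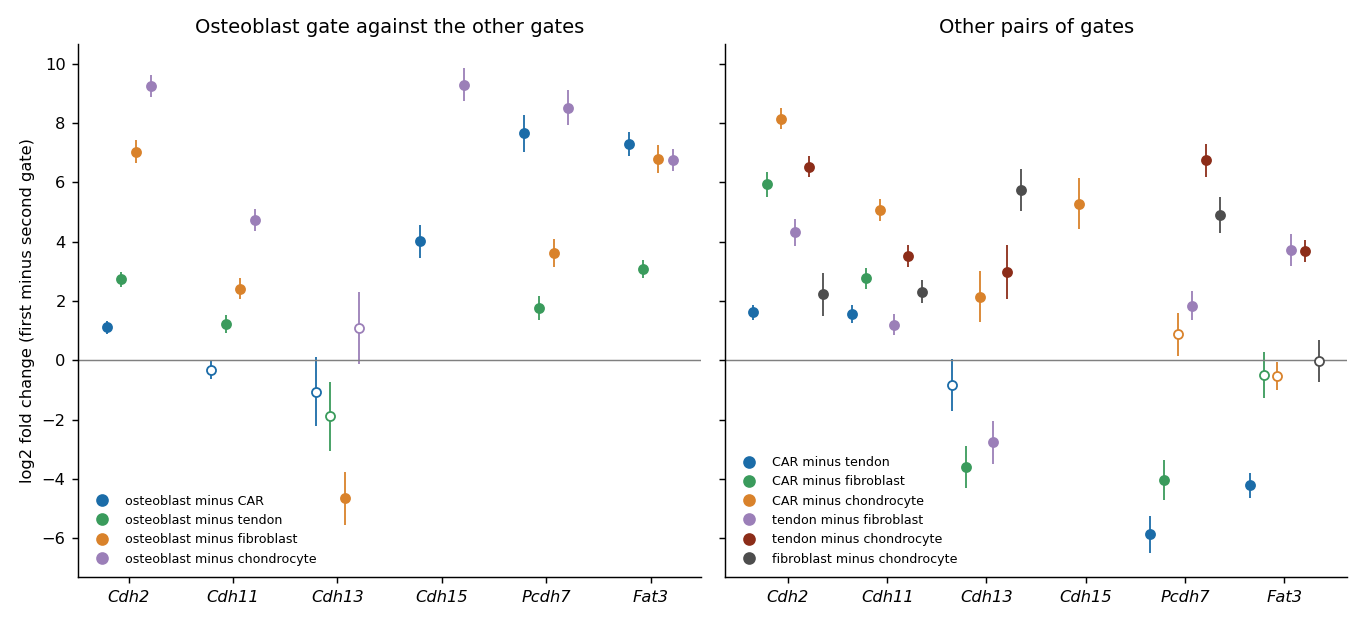
Fitted log2 difference of each cadherin gene between gates (first minus second, ± SE, n = 3 libraries), with filled points for calls at an adjusted p under 0.05 and open points for the rest. Cdh15 is not drawn against gates with no Cdh15 UMI. The Pcdh7 and Fat3 points of osteoblast minus CAR stand at 7.65 and 7.29, while Cdh11 stands at -0.34.

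Shares of cells were compared after every cell had been thinned to 1000 UMIs, which left out 1, 9 and 60 shallower osteoblasts and 18, 1 and 6 CAR cells. The median depth before thinning was 5554.5, 3079 and 1775 UMIs in osteoblasts and 17363, 19343 and 11175 in myeloid cells. In osteoblasts, Cdh2 was found in 33.3%, 40.8% and 46.8% of cells in replicates 1 to 3 (40.3% ± 6.77), and in 70.6% on average without thinning. Pcdh7 was found in 29.6%, 40.8% and 47.4% of thinned osteoblasts and Fat3 in 51.9%, 40.4% and 45.6%. Cdh11 was found in 44.4%, 29.6% and 25.5% of them, and Cdh15 in 3.70%, 6.14% and 5.71%. In CAR cells, Cdh11 was found in 59.7%, 39.7% and 36.1% and Cdh2 in 32.7%, 34.6% and 26.8%, against 0.36%, 0% and 2.06% for Pcdh7. Myeloid cells, in which these adhesion genes should be low, gave the background. They had no UMI of 5 of the 6 genes among 92, 107 and 184 thinned cells. The upper limits of the exact binomial intervals of those shares were 3.93%, 3.39% and 1.98%. A UMI of Pcdh7 was found in 3.26%, 2.80% and 0.543% of the myeloid cells. The Pcdh7 shares of CAR cells in replicates 1 and 2 lay below the myeloid shares, while that of replicate 3 was 2 of 97 cells, above the myeloid share there. Whether myeloid cells express Pcdh7 themselves was not tested, so these CAR shares are not read as background. The Cdh15 shares of osteoblasts lay above the myeloid limits in replicates 2 and 3. In replicate 1 the share was 1 of 27 cells, and its exact binomial interval took in the myeloid limit. Cdh13 in osteoblasts was found in 1 of 27 cells, 0 of 277 and 0 of 333.

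**Figure D3:**
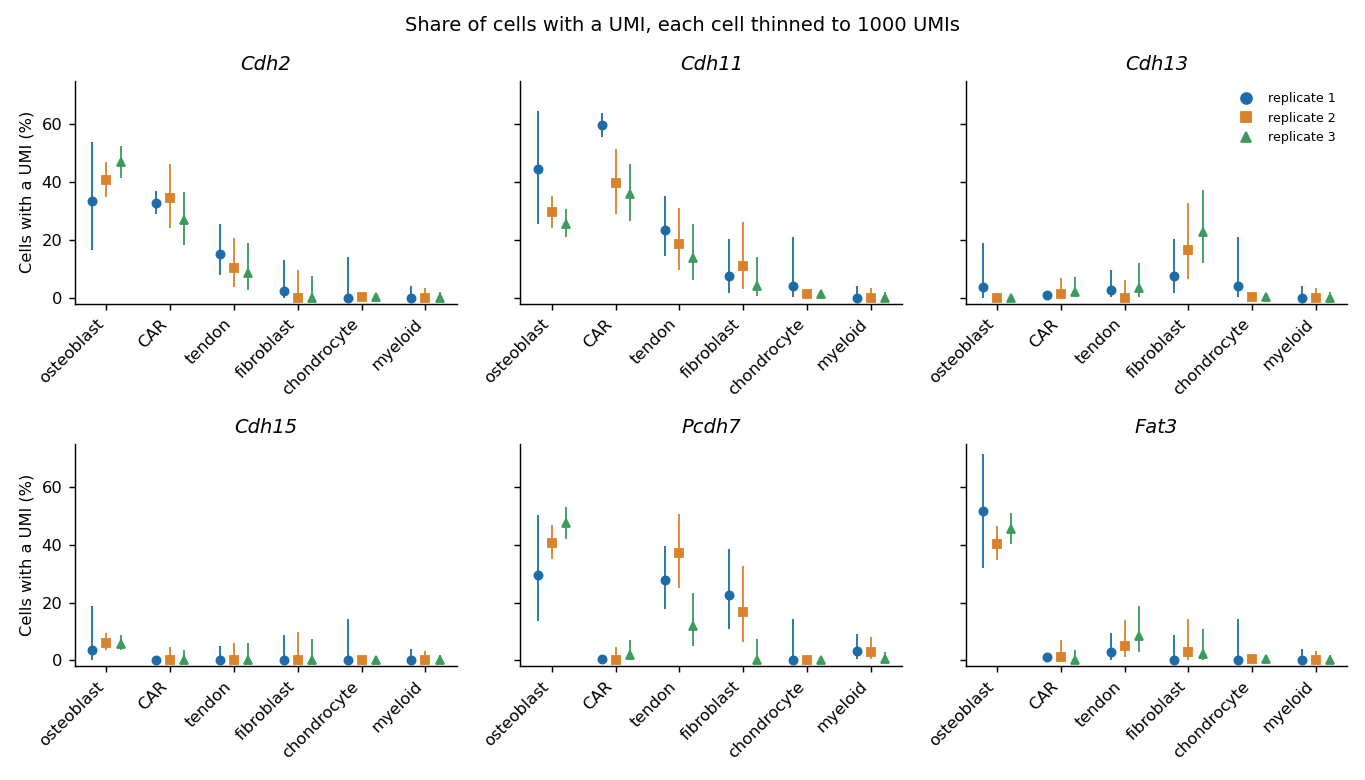
Share of cells with at least 1 UMI of each cadherin gene (vertical axis, percent) after each cell was thinned to 1000 UMIs, one point per replicate with its exact 95% binomial interval. Osteoblasts reach 51.9% for Fat3 and CAR cells 59.7% for Cdh11, while the myeloid cells, shown as background, stay at or below 3.26% for every gene.

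More than 1 cadherin gene was often read from the same osteoblast. Of thinned osteoblasts, 88.9%, 82.3% and 85.3% had a UMI of at least 1 member and 55.6%, 51.3% and 55.6% of at least 2. In CAR cells 20.3%, 14.1% and 13.4% had at least 2 members, and in tendon cells 15.3%, 17.0% and 10.3%. Fat3 was found in 50.7% of 278 osteoblasts with a Cdh2 UMI and in 38.2% of 359 without one. Likewise Fat3 was found in 50.9% of osteoblasts with a Pcdh7 UMI and in 38.0% of those without, a difference in the same direction in replicates 2 and 3 and not in the 27 cells of replicate 1. Cdh11 showed no such excess with Fat3 or Pcdh7. Fat3 was found in 43.0% of osteoblasts with a Cdh11 UMI and 43.9% without, and Pcdh7 in 42.5% and 44.3%. With Cdh2 there was one, as Cdh2 was found in 48.0% of osteoblasts with a Cdh11 UMI and 41.9% without, in the same direction in each library. In CAR cells this pair showed no excess, with Cdh11 in 54.0% of cells with a Cdh2 UMI and 54.6% of cells without. These shares describe cells of shared libraries and carry no test.

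Osteoblasts were split by whether a cell had a UMI of Dmp1 or Phex, genes of late osteoblasts and osteocytes. This is a split by detection, and it was not tested as a measure of maturation. Cells with a UMI of either held more Pcdh7 and Cdh15 and less Cdh2 and Cdh11. Pcdh7 stood at 707 CPM with and 521 without in replicate 2, and at 732 against 577 in replicate 3. Cdh15 stood at 80.3 against 54.1 CPM in replicate 2 and 68.9 against 49.3 in replicate 3. Cdh2 stood at 595 with and 899.7 without in replicate 2, and at 659 against 771 in replicate 3. Cdh11 stood at 385 against 498 CPM and at 269 against 315. For Fat3 the values were 633 against 771 CPM and 649 against 672. The exact Poisson intervals were apart in both replicates for Pcdh7 alone, in replicate 2 alone for Cdh2, Cdh11 and Fat3, and in neither for Cdh15. The cells with a UMI were also deeper, with a median of 3899.5 against 2494 UMIs in replicate 2 and 1965 against 1714 in replicate 3, and Dmp1 and Phex are gating markers. The part of depth in these differences was not tested, and replicate 1 had too few cells for the split.

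Among chondrocytes, Cdh11 and Fat3 differed between states while the other members stayed low. Cells with markers of active Wnt signalling held the most Cdh11, at 35.0 CPM in replicate 2 and 32.7 in replicate 3. Growth plate cells held 7.30 and 10.7 CPM, cycling cells 9.68 and 13.0, hypertrophic cells 9.37 and 0, and superficial cells 1.97 and 1.29. The 1301 and 1883 cells given no single state held 17.4 and 17.6 CPM, with 246 and 217 Cdh11 UMIs. Fat3 stood at 13.0 and 22.6 CPM in cycling cells and at 9.64 and 11.4 in growth plate cells. The exact Poisson intervals of these 2 states overlapped in replicate 2 (8.86 to 18.5 against 8.46 to 10.9 CPM) and were apart in replicate 3 (14.8 to 33.1 against 9.84 to 13.2). Its level in superficial cells was 1.38 and 0.737 CPM, and in Wnt-active cells 3.10 and 4.09. The exact Poisson intervals of Cdh11 in Wnt-active cells, 27.7 to 43.6 CPM and 25.2 to 41.8, lay above those of every other state of the same library. The states held 27 and 76 hypertrophic, 90 and 79 cycling and 240 and 319 Wnt-active cells, so these are small samples of the gate. The hypertrophic values of Cdh11 rest on 3 and 0 UMIs.

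**Figure D4:**
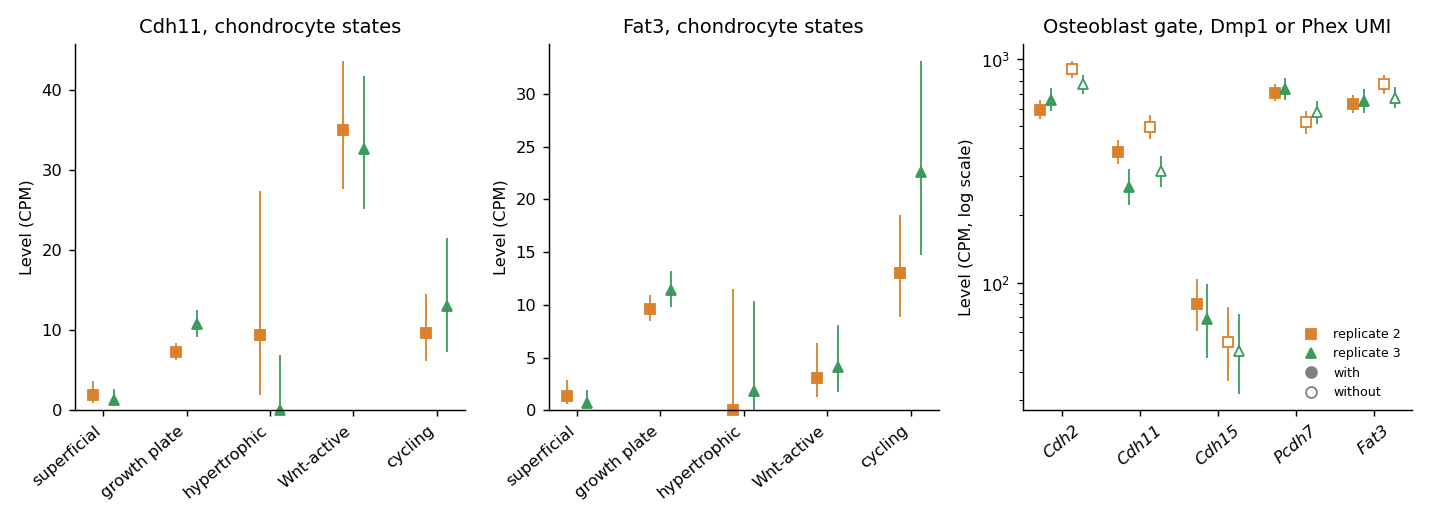
Cdh11 and Fat3 by chondrocyte state, and the cadherin genes other than Cdh13 in osteoblasts with a Dmp1 or Phex UMI (filled) and without one (open), as CPM for replicates 2 and 3 with exact 95% Poisson intervals. Cdh11 reaches 35.0 and 32.7 CPM in the Wnt-active state, and Fat3 reaches 13.0 and 22.6 in cycling cells.

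The source of each gene's UMIs changed with the makeup of the library. Osteoblasts gave 5.2% of the Cdh2 UMIs of replicate 1 and 61.8% and 63.8% of those of replicates 2 and 3, while CAR cells gave 75.1%, 15.5% and 15.1%. Cdh11 UMIs came from CAR cells for 72.6%, 16.0% and 13.2%. In replicates 2 and 3 chondrocytes, though low per cell, gave 26.1% and 31.4% of the Cdh11 UMIs and 24.2% and 23.0% of the Fat3 UMIs. Osteoblasts gave 85.1% and 76.1% of the Cdh15 UMIs and 59.0% and 61.9% of the Pcdh7 UMIs there. In replicate 1 osteoblasts gave 13.3% of the 30 Cdh15 UMIs, against 36.7% from CAR cells, and 17.1% of the Pcdh7 UMIs, against 24.3% from tendon cells.

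**Figure D5:**
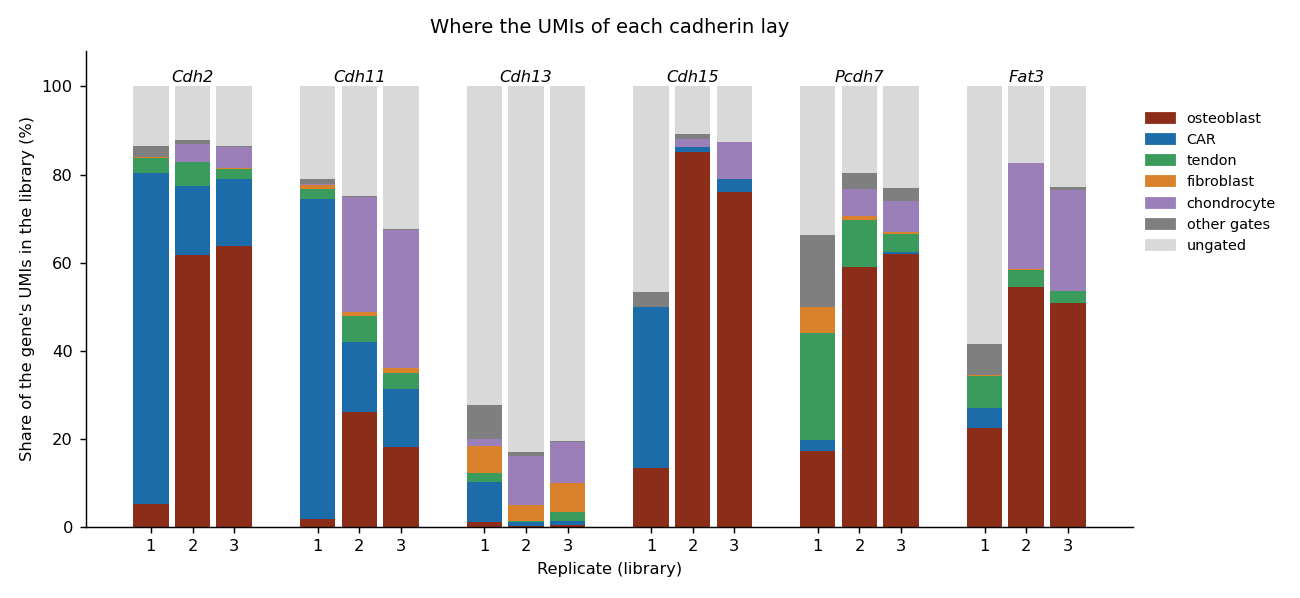
Share of each cadherin gene's UMIs (percent) that came from each gate, per replicate, with cells in no gate shown as ungated. Ungated cells hold 72.3%, 83.1% and 80.6% of the Cdh13 UMIs, and CAR cells hold 75.1% of the Cdh2 UMIs of replicate 1.

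Most Cdh13 UMIs lay outside every gate, at 72.3%, 83.1% and 80.6% of the total in replicates 1 to 3. The 7146 ungated cells held 47.3, 37.1 and 36.3 CPM of Cdh13, and 194 of 1185, 325 of 2220 and 389 of 3741 of them had a UMI of it. By a rule added after these values were seen, the genes most raised in those cells against the other ungated cells in all 3 libraries were named. They were Igfbp5, an IGF-binding protein (1670.4, 1023 and 1147 CPM with Cdh13 against 289, 195 and 192 without), the neuropeptide gene Npy, the collagen gene Col3a1, S100a4 and Ltbp2. For Pcdh7 the same rule gave Bglap, Bglap2, Col22a1, Col1a1 and Mfap4, and for Fat3 Col1a1, Bglap, Bglap2, Tnc and Slit3. Bglap and Bglap2 encode osteocalcin. They and Col22a1 are osteoblast gating markers, and Mfap4 is a tendon gating marker.

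Genes with the pattern most like each member were named by Pearson's r of log2(CPM + 1) over the 15 sums of gate and library, among 11461 genes. The 15 sums share libraries, so r is a description. Cdh2 was most like Ptprd, a receptor phosphatase (r = 0.984), Cdh11 like Kalrn, a guanine nucleotide exchange factor (0.957), and Cdh13 like Olfm1 (0.876). Cdh15 was most like Car3, a carbonic anhydrase (0.969), Pcdh7 like Serpinf1, which encodes the secreted protein PEDF (0.915), and Fat3 like the collagen gene Col13a1 (0.906). Between members, r was 0.892 for Cdh2 and Cdh11 and 0.836 for Pcdh7 and Fat3, and the lowest value was -0.414, for Cdh13 and Cdh15.

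The rest of the cadherin system was followed with 51 genes, all in the files, of which 19 were high enough to be tested. None of the 16 classical and other cadherins of the list passed that filter, nor did 6 of 10 protocadherins and 5 of 9 large cadherins and partners, whereas 8 of 13 catenins and linkers and 3 of 3 sheddases did. Between osteoblasts and CAR cells 5 of the 19 were higher and 7 lower, where 35.5% of all genes were called, with a median log2 difference of -0.40 against -0.03 over all genes. Pcdh18 was 2.80 ± 0.29 higher in osteoblasts on the log2 scale (edgeR adjusted p = 7.99e-07), at 88.2 CPM on average against 17.3. Pcdh19 and Pcdh10, other protocadherins, went the opposite way, with 8.46 against 106 CPM and 2.82 against 46.5. Both passed the filter on low counts through their CAR sums alone. Their differences from CAR cells are therefore a description, and their calls in the counts of the CAR pairs are no support. Ctnnb1, the gene of beta-catenin, was higher in osteoblasts at 295 against 187 CPM. So was Adam10, a protease that sheds cadherins from the surface, at 153 against 65.8. Over the libraries, Ctnnb1 ran from 250 to 376 CPM in osteoblasts and from 178 to 192 in CAR cells. Adam10 ran from 85.1 to 272 CPM in osteoblasts and from 49.5 to 82.0 in CAR cells. Vcl, the gene of the actin linker vinculin, was lower in osteoblasts at 52.2 against 185 CPM.

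Against tendon cells, 6 of the 19 were higher in osteoblasts and 5 lower (32.3% of all genes called), with a median log2 difference of 0.12 against -0.01 over all genes. Ctnnd1, the gene of p120-catenin, was 1.59 ± 0.22 higher on the log2 scale (edgeR adjusted p = 3.74e-05). Dchs2, a large cadherin, stood at -3.15 ± 0.47. It passed the filter on low counts through its tendon sums alone, so its difference is a description and its call in the tendon pairs is no support. Osteoblasts had 7 higher and 4 lower genes against fibroblasts (30.6% of all genes) and 9 higher and 5 lower against chondrocytes (48.9%), with list medians of 0.53 and 0.94. Chondrocytes held 277 CPM of Pcdh9 and 84.2 of Ctnnal1, an alpha-catenin relative, against 29.0 and 4.97 in osteoblasts. Over the libraries, Pcdh9 ran from 199 to 411 CPM in chondrocytes and from 10.4 to 63.6 in osteoblasts. Ctnnal1 passed the filter through its chondrocyte sums alone, so its call in the chondrocyte pairs is no support. CAR cells had 4 higher and 3 lower genes against tendon cells (27.6% of all genes), 4 and 1 against fibroblasts (25.9%), and 9 and 4 against chondrocytes (48.9%). The count against fibroblasts, 5 of 19, was close to the share over all genes. Tendon cells and fibroblasts differed in 1 gene of the 19 (7.47% of all genes), Pcdh18, which was 1.85 ± 0.41 higher in tendon cells (edgeR adjusted p = 0.00885), and tendon cells had 6 higher and 4 lower genes against chondrocytes (38.3%). Fibroblasts had 1 higher and 5 lower genes against chondrocytes (26.5%). The mean level of Pcdh18 fell from 88.2 CPM in osteoblasts to 57.7 in tendon cells, 17.3 in CAR cells, 15.0 in fibroblasts and 0.569 in chondrocytes, and the test did not separate CAR cells from fibroblasts.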

How the data were processed

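Cells were sorted from WT mouse bone and made into 3 droplet single-cell RNA-seq libraries, and the authors deposited 1 matrix of raw UMI counts per library (Cell Ranger 7.1.0, mm10, per the submitters' processing notes). The counts carry no normalization. Barcodes under 200 genes or over 20% mitochondrial UMIs were dropped. The highest Scrublet scores (0.8% per 1000 cells) were removed as doublets, 51, 362 and 837 barcodes, because the automatic cut marked 42, 1 and 0. A marker was on at 1 UMI per 10000 or at 0.2 of its 99th percentile, whichever was higher, a scoring rule set after marker distributions were seen. The 6 genes, the marker lists and the 51-gene list were chosen with earlier results of these data known. Sums of at least 20 cells were tested with edgeR 4.0.16 (quasi-likelihood, TMM, filterByExpr, library as block, Benjamini-Hochberg over 7907 genes), which was tested on simulated data. SE is the log2 difference divided by the root of F. The text names all 6 members, at most 6 listed genes per pair by adjusted p, and similar genes by Pearson's r. Library totals were 20985636, 79905165 and 69890252 UMIs, and 95% intervals and the floor of 3 UMIs cover counting error only. Of the 13 marker lists, the endothelial, osteoclast and muscle gates held 17, 2 and 1 cells and were not described. Same-numbered gates come from the same library, so library numbers pair the sums.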

Additional observations from a re-analysis of the deposited data

How the results depend on the processing

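Leaving out 1 library moved the counts of genes called most. Over the 3 such fits the lowest and highest counts were 1245 and 3338 for osteoblast against CAR (2805 with all libraries), 969 and 3202 against tendon (2554), 936 and 2731 against fibroblast (2417) and 1673 and 4784 against chondrocyte (3863). They were 1010 and 2456 for CAR against tendon (2185), 955 and 2150 against fibroblast (2049) and 2066 and 4151 against chondrocyte (3864), 115 and 843 for tendon against fibroblast (591), 1232 and 3684 for tendon against chondrocyte (3027) and 797 and 2480 for fibroblast against chondrocyte (2093). The lowest count came without replicate 2 in every pair. Members called ran from 2 to 5 for osteoblast against CAR, 2 to 6 for osteoblast against tendon, 2 to 5 for CAR against chondrocyte and 2 to 5 for tendon against fibroblast. No doublet removal left 2 members called for CAR against chondrocyte. With no replicate block, 3 members were called for tendon against fibroblast in place of 5 (470 genes in place of 591), and the block changed no other member count by over 1.5 times. Fits without 1 library also have fewer degrees of freedom. The cause of these shifts, in either direction, was not tested.

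Among 587 refitted log2 differences of members, 538 kept direction and call, 28 lost the call, 7 gained it and 14 changed sign, all of the last from differences not called. Leaving out 1 library moved Cdh13 from -3.33 (without replicate 1) to 0.053 (without replicate 3) for osteoblast minus tendon and from -1.52 (without replicate 2) to 0.20 (without replicate 3) for CAR minus tendon. Fat3 ran from -3.34 without replicate 1 to 0.033 without replicate 2 for CAR minus fibroblast, and turned to 0.34 with no doublet removal and 0.41 with the looser gate, and to 0.15 with no doublet removal and 1.57 with the looser gate for CAR minus chondrocyte, the latter called (edgeR adjusted p = 0.0291). For fibroblast minus chondrocyte, Fat3 turned to 0.021 with RLE scaling, 0.11 with DESeq2, 0.74 with at most 10% mitochondrial UMIs, 1.15 with the looser gate, 0.33 without replicate 1 and 0.0054 without replicate 3, with -0.27 without replicate 2. Pcdh7 turned to -0.10 for CAR minus chondrocyte with the stricter gate. The looser gate was chosen after seeing the data. Fibroblast pairs could not be fitted with the stricter gate or with sums of at least 50 cells, and Cdh15 was too low to test with the looser gate, with no doublet removal or without replicate 2.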
